A study of Mus musculus with 6 samples.

Results

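The genes described here encode the heat shock proteins of the cytosol and the chaperones and stress factors of the endoplasmic reticulum, measured in mouse lung. They were taken from a list of 34 gene symbols, as all probe sets that the platform annotation ties to exactly 1 of these symbols. The table held 74 such probe sets for 33 genes, out of 18194 genes with a symbol in all. Of these, 69 probe sets passed the filter on dim signals, at least 1 for each of the 33 genes, while 5 dim ones of Hsp90aa1, Pdia4, Pdia6 and Atf4 did not. Hsp90ab1 had no probe set with that single symbol and was not analysed here. The cytosolic arm comprised 9 measured genes and the reticulum arm 22, and the chaperonin pair of the mitochondrion, Hspd1 and Hspe1, was kept apart from both.

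RNA came from whole lung homogenate of 6 individual female FVB/N mice and was hybridised to 1 Affymetrix GeneChip array per mouse, with 2 mice in each of 3 groups. Control mice carried the SM22-rtTA transgene alone, a doxycycline-dependent transactivator under the promoter of the smooth muscle gene SM22. The mice of the other groups were heterozygous for SM22-rtTA and for TetO7-BMPR2-R899X, a doxycycline-responsive transgene for a truncated form of the BMP receptor BMPR2. They are called R899X normal RVSP or R899X high RVSP, after a right ventricular systolic pressure (RVSP) that was near normal or substantially raised when they were killed. All 6 mice, controls included, ate doxycycline for 9 weeks starting at 4 weeks of age and were killed at 13 weeks. The SM22 promoter directs the transactivator to smooth muscle, whereas the arrays read all cells of the flushed right lung. In such a mixture, fewer cells of a type and less RNA per cell cannot be told apart.

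The heat shock response and the unfolded protein response are parallel answers to misfolded protein in different compartments. In the cytosol, heat shock factor 1 binds repeated GAA units in promoters and induces Hsp70 proteins, their J-domain partners, Hsp90 and small heat shock proteins. In the reticulum, the sensors Ire1, Perk and Atf6 respond to unfolded client proteins. Spliced Xbp1 and cleaved Atf6 induce chaperones, oxidoreductases and degradation factors, while Perk acts through translation of Atf4, whose targets include Ddit3, Trib3, Asns and Chac1. In lung, secretory cells such as alveolar type 2 cells, club cells and plasma cells carry a heavy load of reticulum clients.

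The 2 arms were chosen by what the proteins do, and their promoters held different motifs. RefSeq promoter windows of mouse build GRCm38.p6, spanning 250 bases before to 50 bases after the transcript start, were found for 29 of the 34 genes. The palindrome GAANNTTC, a pair of heat shock units, occurred in 6 of 7 cytosolic genes with a window (Hspa1a, Hspa1b, Hsph1, Dnaja1, Hspb1 and Bag3), in both mitochondrial genes and in 1 of 20 reticulum genes (Asns). It occurred in 7.86% of the 32851 windows of all genes, and in 9.04% of the 27025 genes with a window. Member counts here are of genes, and the percentages that follow are of windows. For every motif the share of windows was somewhat lower than the share of genes. The extended form with 3 units, GAANNTTC followed after any 2 bases by a further GAA, contains the palindrome and was found in Hsph1, Hspd1 and Hspe1, against 0.603% of all windows. The ER stress element, CCAAT and CCACG separated by any 9 bases, is bound by Atf6 together with the CCAAT-binding factor NF-Y and occurred in 0 of 7 cytosolic and 6 of 20 reticulum genes (Hspa5, Hsp90b1, Calr, Canx, Pdia6 and Creld2), against 0.119% of all windows. Its variant, ATTGG and CCACG separated by any 1 base, occurred in Dnajb11 and Herpud1 and in 0.0365% of all windows. The amino acid response core TGATGNAA, a form of the site bound by Atf4, occurred in Herpud1, Trib3, Asns and Chac1 and in 3.97% of all windows. The core TGACGTGG was found in no member window, and in 0.676% of all windows. The pair TTCNNGAA, which the form with 3 units also contains, was found in Hsph1, Hspd1 and Hspe1 and in 8.52% of all windows. All motifs were searched on both strands, and a match is a description of the sequence, not evidence that a factor binds there.

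The promoters of the cytosolic and mitochondrial genes are shown first for the neighbours Hspa1a and Hspa1b, which were nearly identical there. Dnaja1 and Hspb1 are shown because they differed in the order of the mouse groups. Hspd1 is shown because it shares its upstream region with Hspe1 on the opposite strand. Each run holds the 250 bases before the start, 5′ to 3′ on the strand of the gene, and capitals mark the heat shock units.
Hspa1a, chr17:34972157-34972406, minus strand: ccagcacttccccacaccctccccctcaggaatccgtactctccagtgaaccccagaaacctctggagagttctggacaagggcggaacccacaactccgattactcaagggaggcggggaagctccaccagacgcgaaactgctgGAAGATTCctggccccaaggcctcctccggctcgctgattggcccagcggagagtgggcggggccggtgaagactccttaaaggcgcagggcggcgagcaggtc
Hspa1b, chr17:34959239-34959488, minus strand: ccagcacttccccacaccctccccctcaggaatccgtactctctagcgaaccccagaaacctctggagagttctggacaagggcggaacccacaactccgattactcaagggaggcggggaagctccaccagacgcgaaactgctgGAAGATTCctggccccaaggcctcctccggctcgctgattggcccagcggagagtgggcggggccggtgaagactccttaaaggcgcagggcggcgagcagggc
Dnaja1, chr4:40722218-40722467, plus strand: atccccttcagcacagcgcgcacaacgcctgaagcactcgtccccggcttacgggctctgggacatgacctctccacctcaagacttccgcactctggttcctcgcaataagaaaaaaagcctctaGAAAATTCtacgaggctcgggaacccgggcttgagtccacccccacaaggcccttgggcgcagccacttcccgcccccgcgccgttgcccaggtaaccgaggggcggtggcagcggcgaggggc
Hspb1, chr5:135887669-135887918, plus strand: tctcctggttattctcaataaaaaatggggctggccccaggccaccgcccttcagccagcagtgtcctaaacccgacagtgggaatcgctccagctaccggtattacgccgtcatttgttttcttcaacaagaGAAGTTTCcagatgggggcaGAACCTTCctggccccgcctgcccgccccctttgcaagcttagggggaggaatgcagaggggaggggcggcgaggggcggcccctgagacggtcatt
Hspd1, chr1:55087933-55088182, minus strand: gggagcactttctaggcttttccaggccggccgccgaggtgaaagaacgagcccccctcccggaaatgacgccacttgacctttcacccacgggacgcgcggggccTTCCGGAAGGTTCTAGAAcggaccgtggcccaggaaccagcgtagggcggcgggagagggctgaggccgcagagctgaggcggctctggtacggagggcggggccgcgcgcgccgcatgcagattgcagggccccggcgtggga
The windows of Hspa1a and Hspa1b were identical at 247 of 250 positions, and the palindrome began 104 bases before the start in both. These bases lie before the transcript start, so their likeness does not show what the probe sets read. Hspb1 held 2 palindromes, beginning 117 and 97 bases before its start, and Dnaja1 held 1, beginning 124 bases before its start.

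The reticulum promoters are shown for the Hsp70 chaperone Hspa5, the Hsp90 chaperone Hsp90b1 and the lectin chaperones Calr and Canx, with the ER stress element in capitals, and for Chac1 and Asns with the amino acid response core in capitals.
Hspa5, chr2:34771840-34772089, plus strand: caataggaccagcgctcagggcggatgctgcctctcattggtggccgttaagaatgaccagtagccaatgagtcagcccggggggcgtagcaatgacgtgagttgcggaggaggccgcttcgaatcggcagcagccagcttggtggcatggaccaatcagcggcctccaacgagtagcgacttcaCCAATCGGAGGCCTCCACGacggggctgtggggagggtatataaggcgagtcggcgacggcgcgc
Hsp90b1, chr10:86705445-86705694, minus strand: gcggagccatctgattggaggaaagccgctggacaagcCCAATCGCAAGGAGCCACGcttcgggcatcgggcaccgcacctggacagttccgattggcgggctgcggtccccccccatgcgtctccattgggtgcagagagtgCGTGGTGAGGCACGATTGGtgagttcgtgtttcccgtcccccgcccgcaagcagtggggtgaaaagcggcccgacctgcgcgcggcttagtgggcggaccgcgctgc
Calr, chr8:84846932-84847181, minus strand: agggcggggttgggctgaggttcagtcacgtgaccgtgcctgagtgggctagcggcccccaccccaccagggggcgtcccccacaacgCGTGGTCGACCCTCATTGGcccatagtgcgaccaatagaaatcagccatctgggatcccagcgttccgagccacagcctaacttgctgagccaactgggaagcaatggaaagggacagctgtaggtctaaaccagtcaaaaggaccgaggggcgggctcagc
Canx, chr11:50325674-50325923, minus strand: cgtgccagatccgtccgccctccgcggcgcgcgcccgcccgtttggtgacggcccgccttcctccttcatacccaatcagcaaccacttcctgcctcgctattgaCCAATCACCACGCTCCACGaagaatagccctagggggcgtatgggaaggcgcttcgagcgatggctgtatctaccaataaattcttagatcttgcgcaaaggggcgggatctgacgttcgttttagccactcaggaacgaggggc
Chac1, chr2:119350992-119351241, plus strand: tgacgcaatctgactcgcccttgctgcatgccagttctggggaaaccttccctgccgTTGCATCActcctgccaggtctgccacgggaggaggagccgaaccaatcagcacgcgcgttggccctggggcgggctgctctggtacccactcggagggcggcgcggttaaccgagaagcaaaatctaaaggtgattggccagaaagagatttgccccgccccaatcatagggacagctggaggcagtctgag
Asns, chr6:7693210-7693459, minus strand: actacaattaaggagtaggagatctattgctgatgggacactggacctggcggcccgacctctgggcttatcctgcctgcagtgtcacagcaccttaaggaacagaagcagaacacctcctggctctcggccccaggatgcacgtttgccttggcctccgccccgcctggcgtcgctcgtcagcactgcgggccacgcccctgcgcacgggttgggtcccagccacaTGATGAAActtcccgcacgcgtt
Hsp90b1 held 2 ER stress elements in opposite orientation, beginning 212 and 107 bases before the start. The element of Hspa5 began 65 bases before the start.

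Median intensity per array lay between 128 and 141. The arrays were deposited with a common scaling, so that the mean after trimming 2% at each end was the same on each to within rounding. Values below are linear intensities, and differences are log2 differences of intensity + 16 with their standard errors from limma, each group mean resting on n = 2 mice. Where no probe set is named, the value of a gene is that of its probe set with the highest mean. Lung markers were bright on all arrays: the surfactant genes Sftpc, Sftpb and Sftpa1 summed to between 65059 and 91379, and the club cell list to between 68997 and 89898. Control 1 and R899X normal RVSP 1 stood apart from the other arrays in the 3'/5' intensity ratio of the beta-actin control probe sets, a sign of RNA integrity, at 1.89 and 1.64 against 1.27 to 1.45. The same ratio for Gapdh did not set these arrays apart: it was 0.973 and 1.03 in the controls and 0.700 to 0.875 in the 4 R899X mice, lowest in R899X normal RVSP 1. Several results below rest on these arrays and are given without them as well.

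No member probe set passed in any comparison. With limma and Benjamini-Hochberg adjustment over 27022 probe sets, 0% of all probe sets passed in each of the 3 comparisons, and 0 of 69 member probe sets did. At an unadjusted limma p under 0.05 there were 6 member probe sets for R899X normal RVSP against control (5 lower, 1 higher), where 4.34% of all probe sets reached that level. There were 5 for R899X high RVSP against control (4 higher, 1 lower; 5.65% of all) and 3 for R899X high RVSP against R899X normal RVSP (all higher; 2.62% of all). The first 2 comparisons share the control mice and are given side by side only. The third shares the normal RVSP mice with the first, with opposite sign, and the high RVSP mice with the second. A low normal RVSP array lowers the first difference and raises the third, so these are not separate results. What follows describes values and their spread, and names no gene as changed. Some probe sets below separated all 3 groups, or both controls from all 4 R899X mice. The shares of all genes that separated in these ways are not given here, so these separations are descriptions only.

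Both arms were highest on control 1 and lowest on R899X normal RVSP 1. The control arrays lay further apart for the cytosolic arm, whereas the arrays within each R899X group lay further apart for the reticulum arm. For each gene the mean of its log2 values over the 6 arrays was subtracted, and the deviations were averaged over the 9 cytosolic genes. Control 1 had the highest cytosolic value at 0.34 and control 2 one of the lowest at -0.18. R899X normal RVSP 1 and 2 lay at -0.21 and -0.09, and R899X high RVSP 1 and 2 at 0.12 and 0.02. The controls thus spanned the values of all R899X mice except R899X normal RVSP 1, and the 2 high RVSP arrays lay above the 2 normal RVSP arrays. The mean over the 22 reticulum genes lay at 0.08 and 0.03 in the controls, -0.15 and 0.05 in normal RVSP, and -0.08 and 0.06 in high RVSP. The mean of its 12 chaperones and folding factors ran from -0.27 in R899X normal RVSP 1 to 0.11. The means of the 4 degradation factors and 6 stress factors spanned less. The pooled standard deviation of these means between mice of a group was 0.22 for the cytosolic and 0.10 for the reticulum arm. Within the reticulum arm it was 0.18 for the folding factors, 0.082 for the degradation factors and 0.033 for the stress factors. These are spreads of means, in which single genes partly cancelled. On R899X normal RVSP 1, Chac1 deviated by 0.38 and Ddit3 by -0.33, and the stress factor mean was -0.04. On control 1, the degradation factors Herpud1 and Edem1 deviated by 0.22 and -0.29.

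**Figure D1:**
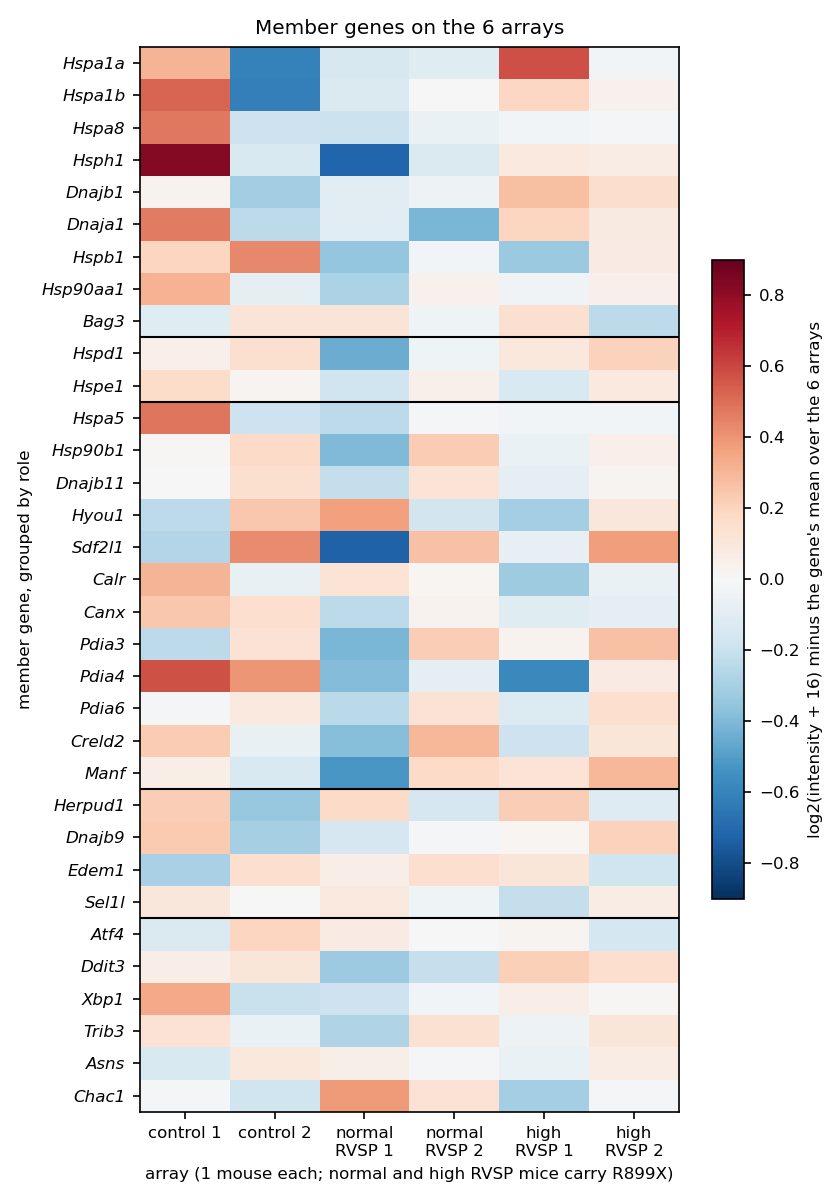
Deviation of each of the 33 member genes from its own mean over the 6 arrays, in log2 units of intensity + 16 (colour scale), with arrays as columns and genes as rows; black lines separate, from the top, cytosolic, mitochondrial, reticulum folding, reticulum degradation and stress factor genes. Control 1 is the highest array for 5 of 9 cytosolic genes, and R899X normal RVSP 1 is the lowest for 11 of 22 reticulum genes.

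Control 1 was the highest of the 6 arrays for 14 of 33 members (42.4%), among them 5 of 9 cytosolic genes (55.6%) and 8 of 22 reticulum genes (36.4%), where it was the highest for 22.5% of all 12557 genes tested. R899X normal RVSP 1 was the lowest array for 4 of 9 cytosolic genes, both mitochondrial genes and 11 of 22 reticulum genes, where it was the lowest for 14.9% of all genes and the highest for 27.5%. The gap between the control mice was also wide for the cytosolic arm, with a median of 1.57-fold between control 1 and control 2 and control 1 higher for 7 of 9 genes, against a median of 1.18-fold for all genes. For the reticulum arm the median gap between the controls was 1.20-fold. Between the normal RVSP mice the median gaps were 1.11-fold for the cytosolic and 1.22-fold for the reticulum arm, against 1.16-fold for all genes. The median gaps between the high RVSP mice were 1.08-fold for the cytosolic and 1.16-fold for the reticulum arm, against 1.11-fold for all genes.

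Other gene lists also differed between these arrays. The 12 immediate early genes, which respond quickly to handling and stress, averaged -0.44 and -0.01 in the controls, -0.50 and 0.38 in normal RVSP, and 0.45 and 0.12 in high RVSP over the 11 tested. Their summed intensity ranged from 44328 to 56493 in controls, from 42628 to 71062 in normal RVSP and from 59432 to 73065 in high RVSP. The interferon-stimulated list (6 of 8 tested) averaged 0.52 in control 1 and -0.21 in control 2, and its sums ranged from 5085 to 11317 in controls, 7203 to 9440 in normal RVSP and 4251 to 4937 in high RVSP. The B and plasma cell list (7 of 9 tested) was highest in R899X high RVSP 1 at 0.44. Its sums ranged from 6212 to 7448 in controls, 5841 to 7562 in normal RVSP and 6318 to 10351 in high RVSP. The cardiac muscle list (8 of 8 tested) lay at -1.06 in R899X high RVSP 2, where its sum was 10566 against 21502 to 31547 on the other arrays. The ciliated cell list (5 of 5 tested) lay at -0.69 in control 1, with a sum of 5009 against 7155 to 8015 elsewhere. The dimmest markers of the immediate early, interferon-stimulated and B and plasma cell lists were Fosb at up to 80.3, Oas2 at up to 205 and Tnfrsf17, a plasma cell receptor, at up to 54.8. The part of these lists, and of the beta-actin ratio, in the values of the chaperone genes was not tested beyond the fits given below.

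**Figure D2:**
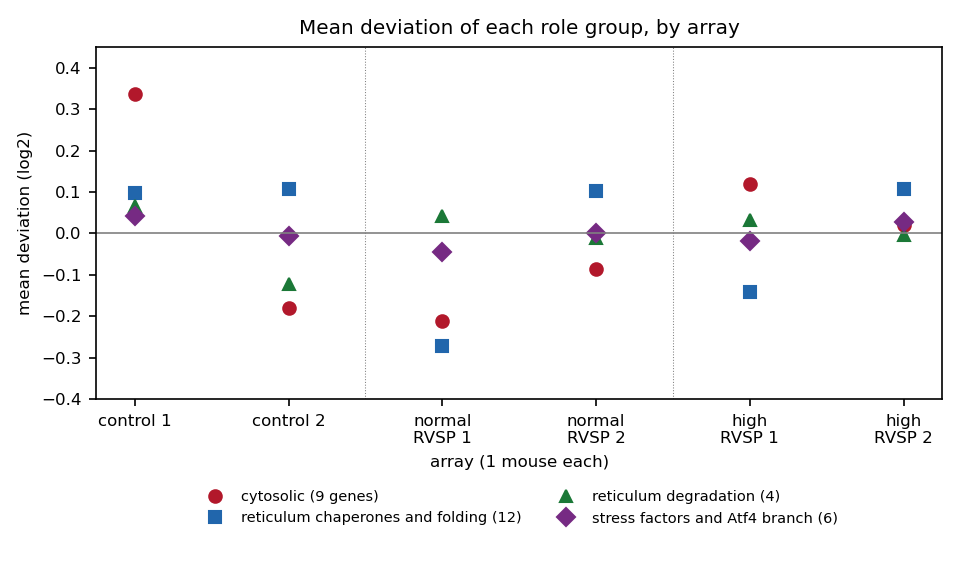
Mean deviation (log2, vertical axis) of the cytosolic genes and of the 3 role groups of the reticulum arm on each of the 6 arrays (horizontal axis), with 1 point per group of genes and array and dotted lines between the mouse groups. The cytosolic points run from -0.21 in R899X normal RVSP 1 to 0.34 in control 1. The means of the stress factors stay between -0.04 and 0.04, while single genes among them deviated further in opposite directions.

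Among the cytosolic genes, the Hsp70 proteins hold unfolded polypeptides and hand them on for refolding. Hspa1a, an inducible Hsp70, read 3819 and 2023 in the controls, 2793 and 2871 in normal RVSP, and 4641 and 3033 in high RVSP. Its high RVSP arrays lay above its normal RVSP arrays, and the controls overlapped both. Hspa1b, its neighbour and near copy, read 17943 and 8116 in the controls, 11381 and 12388 in normal RVSP, and 14184 and 12768 in high RVSP. Control 1 lay 2.21-fold above control 2, the whole span of that gene, and the other probe sets of Hspa1b had the same order of groups. As the genes are near copies, their probe sets may read both transcripts and are not treated as separate evidence. Transcript and probe sequences were not compared.

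Hspa8, the constitutive Hsp70, spanned 20842 to 33125, with control 1 on top. Its high and normal RVSP arrays overlapped on another bright probe set, but not on its remaining tested ones. Hsph1, an Hsp110 that acts as exchange factor for Hsp70, read 3596 and 1836 in the controls, 1229 and 1851 in normal RVSP, and 2156 and 2116 in high RVSP. Its other tested probe set read 1290 and 1336, 677 and 1074, and 1447 and 1658 in the same order. On that dimmer probe set neither control stood apart, and the 3 groups did not overlap, with normal RVSP lowest and high RVSP highest. Its difference between high and normal RVSP was 0.85 ± 0.23, and 0.50 ± 0.31 on the brighter probe set (adjusted p = 0.9996 for both). Without R899X normal RVSP 1 these differences were 0.52 and 0.20.

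The J-domain proteins deliver clients to Hsp70 and stimulate its ATPase. Dnajb1 read 4837 and 3796 in the controls, 4397 and 4584 in normal RVSP, and 5693 and 5264 in high RVSP. A dimmer probe set of the same gene, chosen for the text after its values were seen, read 1675 and 1282, then 2124 and 1863, then 2737 and 2563. All 3 groups were separate on it, in the order control, normal RVSP and high RVSP. The difference between high RVSP and control was 0.85 ± 0.18 on that probe set, with a 95% interval from 0.44 to 1.26 (adjusted p = 0.801), and 0.35 ± 0.16 on the brighter one (adjusted p = 0.857), where it was 0.18 without control 2. Dnaja1 read 11574 and 7127 in the controls, 7825 and 6292 in normal RVSP, and 9571 and 8881 in high RVSP. On each of its 3 probe sets both high RVSP arrays lay above both normal RVSP arrays, and control 1 was the highest of all.

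Hspb1 followed another order. This small heat shock protein, which binds unfolded clients without ATP, read 11047 and 13038 in the controls, 7582 and 9467 in normal RVSP, and 7653 and 10133 in high RVSP. Both controls lay above all 4 R899X mice, which overlapped each other. The difference from control was -0.50 ± 0.20 in normal RVSP (adjusted p = 0.987) and -0.45 ± 0.20 in high RVSP (adjusted p = 0.857). Without R899X high RVSP 1 the latter was -0.24. Its other probe set gave -0.50 ± 0.23 and -0.43 ± 0.23, also with both controls on top. The Gapdh 3'/5' ratio had the same order, with both controls above the 4 R899X mice, as it had beside Canx and Pdia4 below. Its part in these differences was not tested.

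Hsp90aa1, the inducible cytosolic Hsp90, spanned 13251 to 20109 on its brightest probe set, lowest in R899X normal RVSP 1 and highest in control 1. Another probe set had the same lowest and highest arrays. A further one read 6290 and 9062 in the controls, 5559 and 10977 in normal RVSP, and 9470 and 10649 in high RVSP. On that probe set high RVSP lay above control. Bag3, a cochaperone that links Hsp70 to autophagy, spanned 1180 to 1541 with all groups overlapping. In the mitochondrion, the chaperonin Hspd1 read 4638 and 4976 in the controls, 3296 and 4373 in normal RVSP, and 4814 and 5199 in high RVSP. The normal RVSP arrays lay below those of both other groups, with differences of -0.34 ± 0.17 from control and 0.40 ± 0.17 between high and normal RVSP. Without R899X normal RVSP 1 they were -0.14 and 0.19. Hspe1, its cofactor, spanned 3262 to 4138 with overlapping groups.

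**Figure D3:**
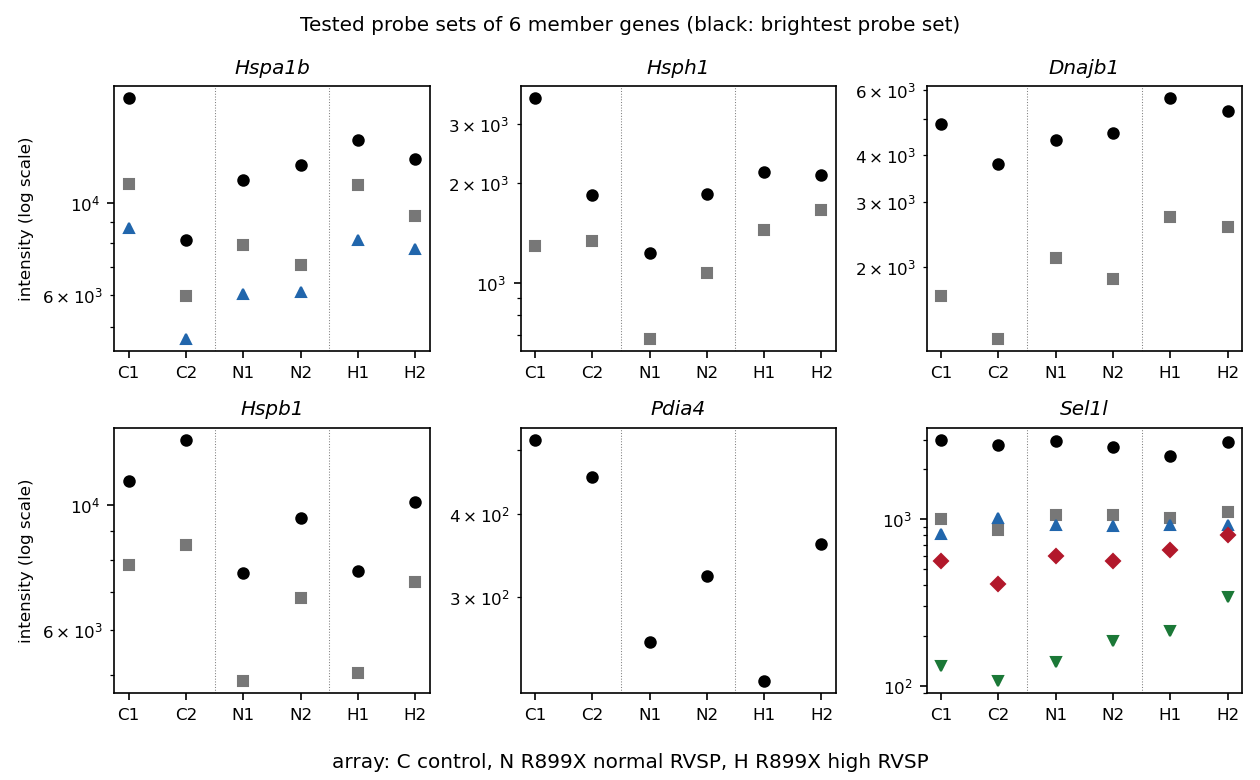
Intensity (vertical axes, log scale) of every tested probe set of Hspa1b, Hsph1, Dnajb1, Hspb1, Pdia4 and Sel1l on the 6 arrays (horizontal axis: C control, N R899X normal RVSP, H R899X high RVSP), with 1 symbol per probe set and black for the brightest. Hspb1 and Pdia4 read highest in both controls, whereas the dimmer Dnajb1 probe set runs from 1282 in control 2 to 2737 in R899X high RVSP 1.

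In the reticulum arm, the general chaperones lay close together across groups. Hspa5 (BiP), the Hsp70 of the reticulum and a regulator of its stress sensors, read 22732 and 14306 in the controls, 13834 and 16126 in normal RVSP, and 16019 and 16016 in high RVSP. Apart from control 1, its arrays fell between 13834 and 16126. Its differences from control were -0.27 ± 0.22 in normal and -0.17 ± 0.22 in high RVSP, and without control 1 they were 0.06 and 0.16. Hsp90b1 (Grp94), the Hsp90 of the reticulum, spanned 7876 to 12184 with overlapping groups. A dimmer probe set of Hsp90b1 had both controls lowest (2715 and 3591) and differed by 0.71 ± 0.21 between high RVSP and control (adjusted p = 0.857), while the brightest gave -0.10 ± 0.21. The J-domain cofactor Dnajb11, the Hsp70 family member Hyou1 and the small cofactor Sdf2l1 also had overlapping groups in every comparison on their brightest probe sets. Sdf2l1 spanned 149 to 351, the widest relative range among the brightest probe sets of the arm at 2.35-fold, with R899X normal RVSP 1 lowest. A dim probe set of Hyou1 spanned 9.18-fold because R899X normal RVSP 1 read 15.3, beside 93.3 to 141 on the other arrays.

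The lectin chaperones calreticulin and calnexin retain immature glycoproteins. Calr read 14770 and 11373 in the controls, 12977 and 12096 in normal RVSP, and 9566 and 11441 in high RVSP. Both high RVSP arrays were below the normal RVSP arrays on this probe set, and 1 of them was below the controls. On the dimmer Calr probe sets the high and normal RVSP arrays overlapped, with differences of -0.09 and -0.08. Canx read 8565 and 8020 in the controls, 6124 and 7372 in normal RVSP, and 6703 and 6838 in high RVSP. Both controls lay above all R899X mice, with differences from control of -0.30 ± 0.15 in normal and -0.29 ± 0.15 in high RVSP. The former was -0.17 without R899X normal RVSP 1, and a dimmer Canx probe set gave 0.39 ± 0.28 for high RVSP against control.

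Protein disulphide isomerases form and rearrange disulphide bonds in the reticulum. Pdia4 read 517 and 455 in the controls, 256 and 323 in normal RVSP, and 224 and 361 in high RVSP. Both controls were above all 4 R899X mice, which overlapped each other. Its differences from control were -0.72 ± 0.26 in normal RVSP (95% interval from -1.33 to -0.11, adjusted p = 0.987) and -0.74 ± 0.26 in high RVSP (from -1.35 to -0.13, adjusted p = 0.857). The high RVSP difference was -0.41 when R899X high RVSP 1 was left out and -1.06 when its groupmate was left out. The related Pdia3 and Pdia6 spanned 5949 to 9490 and 2249 to 2953, with all groups overlapping, although a dim Pdia3 probe set had both controls highest, at 188 and 196, and all R899X mice between 57.8 and 151. The secreted stress protein Manf read 3883 and 3388 in the controls, 2588 and 4196 in normal RVSP, and 4063 and 4578 in high RVSP, so that high RVSP lay above control. Creld2, another secreted stress protein, spanned 1114 to 1803 with overlapping groups.

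The degradation factors remove terminally misfolded proteins from the reticulum. Herpud1, a membrane component of that machinery, spanned 4840 to 7140, and Edem1, which recognises trimmed glycans, spanned 1071 to 1460. Dnajb9, a J-domain cofactor of Hspa5, spanned 4380 to 6335, from control 2 to control 1. Sel1l, the adaptor of the ubiquitin ligase Hrd1, was read by 5 probe sets that disagreed. The brightest spanned 2395 to 2978 and differed by -0.12 ± 0.16 between high RVSP and control. The dimmest, also singled out after its values were seen, read 131 and 106 in the controls, 138 and 185 in normal RVSP, and 213 and 341 in high RVSP, a difference of 1.09 ± 0.30 (adjusted p = 0.857). Which transcripts each of these probe sets detects was not examined.

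Among the stress factors, Atf4 and Asns spanned 2816 to 3610 and 689 to 813 on their brightest probe sets. Another Atf4 probe set spanned 1838 to 3235, also with overlapping groups. Ddit3 (CHOP), a transcription factor of the terminal unfolded protein response, read 1170 and 1208 in the controls, 891 and 970 in normal RVSP, and 1299 and 1247 in high RVSP. Its 3 groups did not overlap, with normal RVSP lowest, and high RVSP exceeded normal RVSP by 0.45 ± 0.15 (95% interval from 0.09 to 0.80, adjusted p = 0.9996). A dim second Ddit3 probe set, at 102 to 155, gave 0.17 ± 0.28 with overlapping groups. Chac1, which degrades glutathione, ran the other way, at 205 and 182 in the controls, 276 and 229 in normal RVSP, and 165 and 205 in high RVSP, a difference of -0.42 ± 0.24 between high and normal RVSP that was -0.27 without R899X high RVSP 1. Xbp1, the factor activated by Ire1, spanned 12020 to 17566, and Trib3, a pseudokinase, spanned 205 to 277. Arrays measure the sum of Xbp1 transcripts here, and no probe set is known from the files to separate the spliced form.

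R899X normal RVSP against control addresses the transgene without raised pressure. The median difference was -0.24 over the 9 cytosolic genes (6 lower, 3 higher) and -0.10 over the 22 reticulum genes (16 lower, 6 higher). Over all genes tested the median was 0.02, with 53.7% higher and 46.3% lower. Arrays did not overlap for 5 of 33 genes on the lower side (Hspb1, Hspd1, Canx, Pdia4 and Ddit3), where 12% of all genes were lower in this way. They did not overlap for 1 on the higher side (Chac1), where 15% of all genes were higher. With a difference of at least 0.4 as well, 2 members were lower (Hspb1 and Pdia4; 2.65% of all genes) and 0 higher (3.62% of all genes). Leaving out control 1 gave a cytosolic median of -0.02, leaving out control 2 gave -0.44, and R899X normal RVSP 1 gave -0.08. The reticulum median was 0.01 without R899X normal RVSP 1 and -0.28 without R899X normal RVSP 2. Without both control 1 and R899X normal RVSP 1 the medians were 0.12 and 0.05. Adding a beta-actin term to the fit gave -0.12 and -0.15.

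R899X high RVSP against control addresses the transgene with raised pressure. Medians were -0.05 for each arm, with 5 of 9 cytosolic and 14 of 22 reticulum genes lower. Over all genes the median was -0.02, with 46.1% higher and 53.9% lower. Arrays did not overlap for 3 of 33 genes on the higher side (Dnajb1, Manf and Ddit3; 14.3% of all genes) and for 3 on the lower side (Hspb1, Canx and Pdia4; 18.3% of all genes). With a difference of at least 0.4 as well, Hspb1 and Pdia4 were lower (3.38% of all genes) and 0 members higher (3.66% of all genes). By probe set, 4 of 21 cytosolic and 8 of 45 reticulum probe sets were higher without overlap (19.1% of all), and 2 and 4 were lower (18.2% of all). The cytosolic value turned on the control taken: the median was 0.22, with 7 of 9 genes higher, without control 1, and -0.33 without control 2. Against control 2 alone, Hspa1a differed by 0.89 and Hspa1b by 0.73, compared with 0.43 ± 0.31 and 0.16 ± 0.32 with both controls. Hspb1 and Pdia4 differed by -0.57 and -0.65 against control 2 alone. Their sign could not change, because both controls lay above all R899X mice. Leaving out R899X high RVSP 1 gave a reticulum median of 0.03, and leaving out the other high RVSP mouse gave -0.15. Averaging all probe sets of a gene gave medians of 0.03 and 0.02 for the arms, the opposite sign to the brightest probe sets. In a fit with the beta-actin ratio as a further term the cytosolic and reticulum medians were 0.10 and -0.14.

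R899X high RVSP against R899X normal RVSP concerns pressure among mice with the same transgenes, and it does not use the controls. The median was 0.18 over the cytosolic genes, with 8 of 9 higher, and 0.03 over the reticulum genes, with 14 of 22 higher. Over all genes the median was -0.03, with 42.5% higher and 57.5% lower. Arrays did not overlap for 6 of 9 cytosolic genes on the higher side (Hspa1a, Hspa1b, Hspa8, Hsph1, Dnajb1 and Dnaja1), Hspd1, and 3 of 22 reticulum genes (Dnajb9, Ddit3 and Xbp1), where 11.5% of all genes were higher in this way. On the lower side they did not overlap for Calr and Chac1, where 19.8% of all genes were lower. With a difference of at least 0.4 as well, Hspa1a, Hsph1 and Ddit3 were higher (2.39% of all genes) and Chac1 lower (3.36% of all genes), with Hspd1 just short of 0.4. By probe set the count was 14 of 21 cytosolic and 8 of 45 reticulum probe sets on the higher side, where 16.7% of all probe sets were. On the lower side it was 0 and 2, where 15.5% of all probe sets were. These 6 cytosolic genes include the near copies Hspa1a and Hspa1b, and each of their probe sets shares the same 4 mice, so the genes are not independent. The differences ranged from 0.11 ± 0.22 for Hspa8 to 0.50 ± 0.31 for Hsph1, and all had an adjusted p of 0.9996. Some separations were narrow. The closest high and normal RVSP arrays read 23423 and 22951 for Hspa8, and 12768 and 12388 for Hspa1b. Without R899X normal RVSP 1 the cytosolic median was 0.12 with 6 of 9 genes higher, and that of the reticulum arm was -0.09. Without R899X normal RVSP 2 the reticulum median was 0.20. Hsph1 moved to 0.20 without R899X normal RVSP 1, and Hspa1a to 0.10 without R899X high RVSP 1. With the beta-actin term in the fit, the cytosolic median was 0.36 and the reticulum median -0.05.

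**Figure D4:**
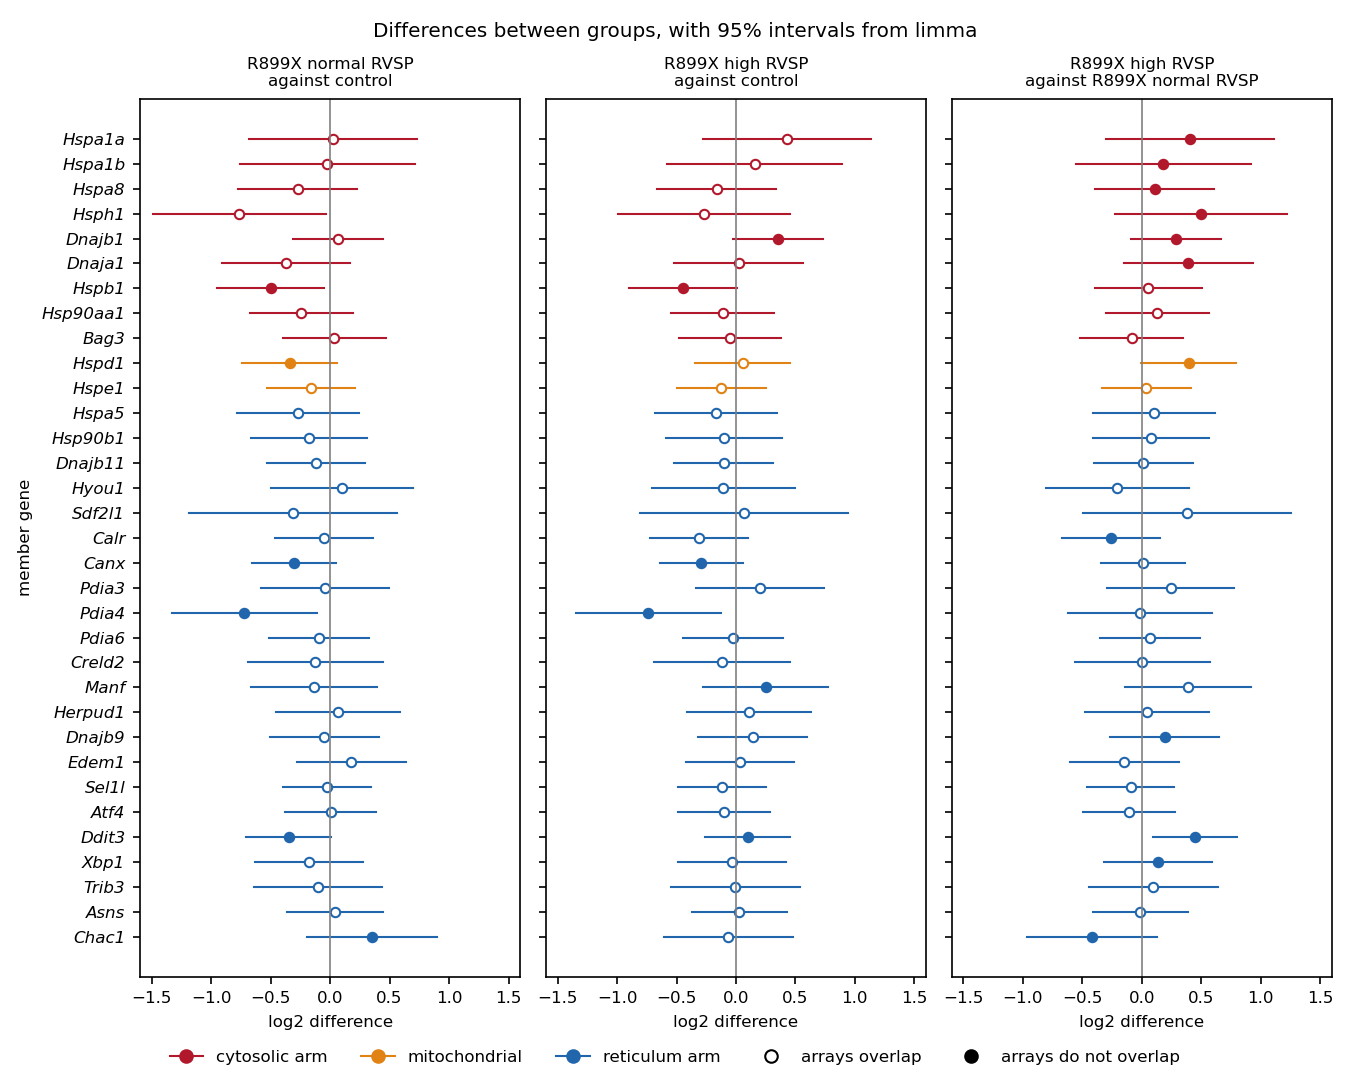
Log2 difference (horizontal axes) of each of the 33 member genes in the 3 comparisons, as a point with its 95% interval from limma (n = 2 mice a group), with filled points where the arrays of the groups do not overlap. In the right panel 6 of 9 cytosolic points are filled and above 0, and in the first 2 panels Hspb1, Canx and Pdia4 are filled and below 0.

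Set directly against each other, the arms differed most between the control mice. The cytosolic minus the reticulum deviation was 0.26 and -0.21 in the controls, -0.06 and -0.14 in normal RVSP, and 0.20 and -0.04 in high RVSP. The control mice thus lay at both ends of the range. The genes were also grouped by promoter. The 8 genes of cytosol and mitochondrion with a heat shock unit pair averaged 0.30 and -0.11 in the controls, -0.24 and -0.09 in normal RVSP, and 0.10 and 0.04 in high RVSP. The 8 reticulum genes with an ER stress element of either form averaged 0.19 and -0.01, then -0.18 and 0.08, then -0.09 and 0.01 in the same order. The 4 genes with the amino acid response core averaged 0.05 and -0.12, then 0.08 and 0.02, then -0.05 and 0.01. In high against normal RVSP, 7 of 8, 7 of 8 and 2 of 4 genes were higher in these sets. Their medians were 0.29, 0.03 and 0.02, and 42.5% of all genes were higher. Without R899X normal RVSP 1, the ER stress element genes Hspa5, Hsp90b1, Dnajb11, Calr, Canx, Pdia6 and Creld2 were lower, and Herpud1 was higher. In the heat shock unit set, Hspb1, Bag3 and Hspe1 were then lower and the others higher. Herpud1 belongs to both reticulum sets.

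Probe sets of 1 gene did not always point the same way. Of 22 member genes with several tested probe sets, 9 had at least 1 opposed to the brightest for normal RVSP against control, 13 for high RVSP against control and 6 for high against normal RVSP.

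Of 87 further gene symbols of these pathways, 79 were tested, and 0 passed in any comparison with limma. At an unadjusted limma p under 0.05 there were 0 for normal RVSP against control, 1 for high RVSP against control and 2 for high against normal RVSP. Their medians were 0.01, -0.04 and -0.03 in these comparisons. Arrays did not overlap for 15 of 79 on the higher and 8 on the lower side in the first comparison (15% and 12% of all genes). The counts were 8 and 15 in the second (14.3% and 18.3%), and 9 and 20 in the third (11.5% and 19.8%). The genes named next are up to 4 a side with the largest differences, so their numbers do not reflect these counts. For the 28 further cytosolic genes, the median in high against normal RVSP was -0.02, with 12 of 28 higher. In that comparison the arrays of Chordc1, an Hsp90 cochaperone, and of Dnajb4, a J-domain protein, lay higher without overlap, with differences of 0.31 ± 0.26 and 0.20 ± 0.18. The small heat shock protein Hspb6 (-0.59 ± 0.20) and the cochaperone Bag1 (-0.30 ± 0.15) lay lower. Muscle lists were lower there too: the cardiac list averaged 0.57 and 0.15 in normal RVSP and -0.02 and -1.06 in high RVSP, and the smooth muscle list 0.27 and 0.06 against -0.04 and -0.10. Their part in the Hspb6 value was not tested. Among reticulum genes, Cebpb, a transcription factor, differed by 0.54 ± 0.37 and the sensor relative Atf6b by 0.36 ± 0.21, while the exchange factor Sil1 differed by -0.35 ± 0.17 and the stress protein Nupr1 by -0.40 ± 0.15. In high RVSP against control, Ddit4, a stress-induced inhibitor of mTORC1, read 3665 and 4424, above the control readings of 3010 and 1882, and differed by 0.75 ± 0.26 (adjusted p = 0.857). Hspbp1, Hspb8 and Psat1 also lay above control, by 0.21, 0.20 and 0.19. Nupr1 (-0.35 ± 0.15), Fkbp2, a prolyl isomerase (-0.36 ± 0.22), the sensor Atf6 (-0.29 ± 0.16) and Bag1 (-0.26 ± 0.15) lay below control there. In normal RVSP against control, Hspb6 differed by 0.46 ± 0.20, and Sesn2, a stress-induced sestrin, by -0.39 ± 0.21. Fkbp11, Sil1 and the segregase Vcp lay above control by 0.29, 0.27 and 0.25, and Dnajb4, the oxidase Ero1b and the cochaperone St13 differed by -0.32, -0.26 and -0.26.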

How the data were processed

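Intensities from 6 arrays, deposited by the authors as 1 linear intensity per probe set, were used; per the labels' protocols the right lung was flushed and RNA purified on columns, with the summarisation algorithm not given in the sources used here. An equal 2% trimmed mean on every array shows a common scaling of the deposited intensities. Of 45101 probe sets, 64 control probe sets and the lower 40% by mean (below an intensity of about 74.9) were left out. Log2(intensity + 16) was fitted with 1 mean per group over all 6 arrays (R 4.3.3, limma 3.58.1, lmFit and eBayes with intensity trend, 3 residual degrees of freedom), two-sided, with Benjamini-Hochberg adjustment at 0.05. The pseudocount understates differences of dim probe sets. Gene symbols are those of the platform annotation, which gave 1 symbol for 34958 probe sets, several for 932 and none for 9211. Mice are the replicates, numbered in accession order only. An exact permutation test of 2 against 2 cannot go below p = 0.333 and was not used. The fit was tested on simulated data. Members and lists were chosen with earlier results of these data known. All array values are given for members whose arrays did not overlap with a difference of at least 0.4 or that spanned more than 3-fold, and others were added after their values were seen. Promoters came from RefSeq.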

Additional observations from a re-analysis of the deposited data

How the results depend on the processing

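No paired analysis was possible because the labels give no numbers that pair mice across groups. Each comparison rests on 2 mice a group and 3 residual degrees of freedom, which limits every value. Quantile normalization, pseudocounts of 1 and 64, no filter, a stricter filter (which left out Chac1), eBayes without intensity trend and the beta-actin covariate kept the counts of probe sets passing at 0 in all comparisons. With only the 4 arrays compared, 1 probe set passed in R899X high RVSP against control, not a member. Leaving out 1 array gave 0 to 4, 0 to 2 and 0 to 43 probe sets passing for normal RVSP against control, high RVSP against control and high against normal RVSP, and 0 members in each. Such fits leave 1 array in a group, which is assumed to vary like the others. Without both control 1 and R899X normal RVSP 1, with 1 residual degree of freedom, 131, 313 and 56 passed. They include 6 member probe sets, all higher in high RVSP than in control 2: Hspa1a, 3 of Hspa1b, 1 of Dnajb1 and 1 of Dnaja1. That fit keeps 1 control and 1 normal RVSP mouse, so its spread comes from the 2 high RVSP mice alone. Their median gap over all genes was 1.11-fold, against 1.18-fold between the controls and 1.16-fold between the normal RVSP mice. The 2.21-fold gap between the controls for Hspa1b does not enter it. Its counts therefore name no gene as changed. The same fit gave cytosolic medians of 0.12 for normal RVSP against control and 0.22 for high RVSP against control. Its reticulum medians were 0.048 for normal RVSP against control and -0.087 for high against normal RVSP. Leaving out 1 array, the cytosolic median ranged from -0.44 to -0.02, from -0.33 to 0.22 and from 0.12 to 0.26 in the 3 comparisons, and the reticulum median from -0.28 to 0.014, from -0.15 to 0.026 and from -0.087 to 0.20. Averaging the probe sets of a gene moved the reticulum median for high against normal RVSP to 0.13 and the cytosolic one to 0.33. The causes were not tested. All 8 differences of named members kept their sign under every alternative that gave a value. Leaving out arrays could not have reversed them, because these members were named for arrays that did not overlap.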
